A study of Sus scrofa with 28 samples.

Results

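The genes *PPARGC1B*, *RXRB*, *SREBF2* and *CEBPD*, 4 regulators of lipid metabolism, were followed in loin muscle of young pigs. They were found by gene symbol and are represented by 5 of the 5226 probe sets of the deposited table, which name 2275 genes in all. *CEBPD* has 2 probe sets, and the one that the study placed among its regulatory factors was used as its main one.

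Expression was measured with one porcine oligonucleotide array per animal in the *Longissimus dorsi* muscle of 28 male piglets at 28 days of age. The 14 Duroc × Iberian (DU×IB) piglets had Duroc sires and Iberian dams, and the 14 Iberian (IB) piglets had Iberian sires and Iberian dams. All of them were suckled by their dams until weaning, when they were sampled. The labels do not tie piglets to litters. By the methods the crossbred litters were few, far fewer than the purebred ones, so that most DU×IB piglets have littermates in their group, while p-values treat all piglets as independent.

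PPARGC1B is a coactivator that docks on nuclear receptors and drives mitochondrial and oxidative genes, and in mouse liver it also coactivates the SREBP factors. RXRB is one of the retinoid X receptors, obligate partners of the PPAR, LXR and retinoic acid receptors, and SREBF2 encodes SREBP-2, the membrane-bound factor that is released when sterols are low and switches on cholesterol synthesis and uptake. CEBPD is a C/EBP transcription factor that is induced early in adipocyte differentiation in culture and responds rapidly to glucocorticoids and inflammatory signals.

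The arrays fall into a series of 16 (piglets 1 to 8 of each type) and a series of 12 (piglets 9 to 14 of each type), seen in the spike-in controls and balanced between genetic types. Fits carry the series as a term, and correlations use values centred within it. Array medians ran between 6.24 and 7.05 in DU×IB and between 6.01 and 7.02 in IB. Muscle markers were strong (*RYR1*, the calcium release channel of muscle fibres, averaged 12.63 in DU×IB and 12.61 in IB on the log2 scale). Of the slow fibre markers, 1 of 3 was higher in DU×IB (*CASQ2*, difference 0.97). Of the markers of other cells, 3 of 4 fibroblast and preadipocyte genes were higher in DU×IB, with a median difference of 1.05 over the 4, while none of 3 adipocyte, 6 macrophage or 4 endothelial genes passed the test. Over all probe sets 2.07% were higher in DU×IB. The marker genes that passed are in the study's own list of differentially expressed genes and so are not independent evidence. In such bulk samples fewer cells of a type and less RNA per cell cannot be told apart.

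None of the 4 regulators passed the test for a difference between genetic types. Mean differences (DU×IB minus IB, log2) were 0.39 for *PPARGC1B*, 0.083 for *RXRB*, 0.23 for *SREBF2* and −0.44 for the main *CEBPD* probe set. The 95% intervals of these 4 all included 0, while that of the second *CEBPD* probe set (−1.02 to −0.026) did not. Of the 5 probe sets here limma called 0 at an adjusted p (Benjamini-Hochberg over all probe sets) under 0.10. Over the whole array 2.07% of probe sets were called with a higher level in DU×IB and 0.708% with a higher level in IB.

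*PPARGC1B* ran between 8.28 and 10.52 with a median of 9.46 in DU×IB piglets, and between 7.74 and 10.18 with a median of 9.23 in IB piglets (log2 level). The ranges overlapped almost wholly, and 8 of 14 DU×IB piglets lay above the IB median. The means were 9.50 ± 0.63 in DU×IB and 9.11 ± 0.76 in IB (SD, n = 14 each), a difference of 0.39 ± 0.25 (SE, limma adjusted p = 0.541, 95% interval −0.12 to 0.90). It was 0.92 in the series of 12 and −0.0050 in the series of 16.

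*RXRB* was read at a low level, close to the log2 value of 4 used as the limit for dim probe sets. It ran between 3.49 and 5.01 with a median of 4.13 in DU×IB, and between 3.28 and 4.86 with a median of 4.16 in IB. The groups overlapped throughout. The means were 4.25 ± 0.46 in DU×IB and 4.17 ± 0.40 in IB (SD, n = 14 each), and the difference was 0.083 ± 0.15 (SE, limma adjusted p = 0.875, 95% interval −0.23 to 0.39). Its sign was positive in the series of 16 (0.28) and negative in the series of 12 (−0.18).

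*SREBF2* ran between 7.72 and 8.32 with a median of 7.86 in DU×IB, and between 6.59 and 8.79 with a median of 7.75 in IB. The whole DU×IB range lay inside the IB range, and 12 of 14 DU×IB piglets were above the IB median. Means were 7.91 ± 0.18 in DU×IB and 7.68 ± 0.63 in IB (SD, n = 14 each), with a difference of 0.23 ± 0.16 (SE, limma adjusted p = 0.571, 95% interval −0.089 to 0.54). The difference was 0.61 in the series of 12 and −0.057 in the series of 16.

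*CEBPD* ran between 9.12 and 11.03 with a median of 9.97 in DU×IB, and between 8.70 and 12.04 with a median of 10.28 in IB. The IB piglets reached both the lowest and the highest values, and 11 of 14 DU×IB piglets were below the IB median. Means were 9.93 ± 0.62 in DU×IB and 10.38 ± 0.84 in IB (SD, n = 14 each), and the difference was −0.44 ± 0.27 (SE, limma adjusted p = 0.507, 95% interval −0.99 to 0.11). It was −0.91 in the series of 12 and −0.096 in the series of 16.

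The second *CEBPD* probe set moved the same way. It averaged 6.66 ± 0.57 in DU×IB and 7.18 ± 0.81 in IB (SD, n = 14 each), a difference of −0.52 ± 0.24 (SE) that had an unadjusted p of 0.040 in limma and an adjusted p of 0.329. The 2 probe sets followed each other closely, with r = 0.83 among DU×IB piglets and r = 0.96 among IB piglets. For no regulator did the difference depend on series past the test (limma interaction adjusted p of 0.742 or higher).

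IB piglet 9 was at the edge of its group for every regulator. Its levels were 12.04 for *CEBPD* and 4.86 for *RXRB*, the highest of the IB piglets, and 7.74 for *PPARGC1B* and 6.59 for *SREBF2*, the lowest. Without it the differences were 0.27 for *PPARGC1B*, 0.16 for *RXRB*, 0.16 for *SREBF2* and −0.31 for *CEBPD*.

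**Figure D1:**
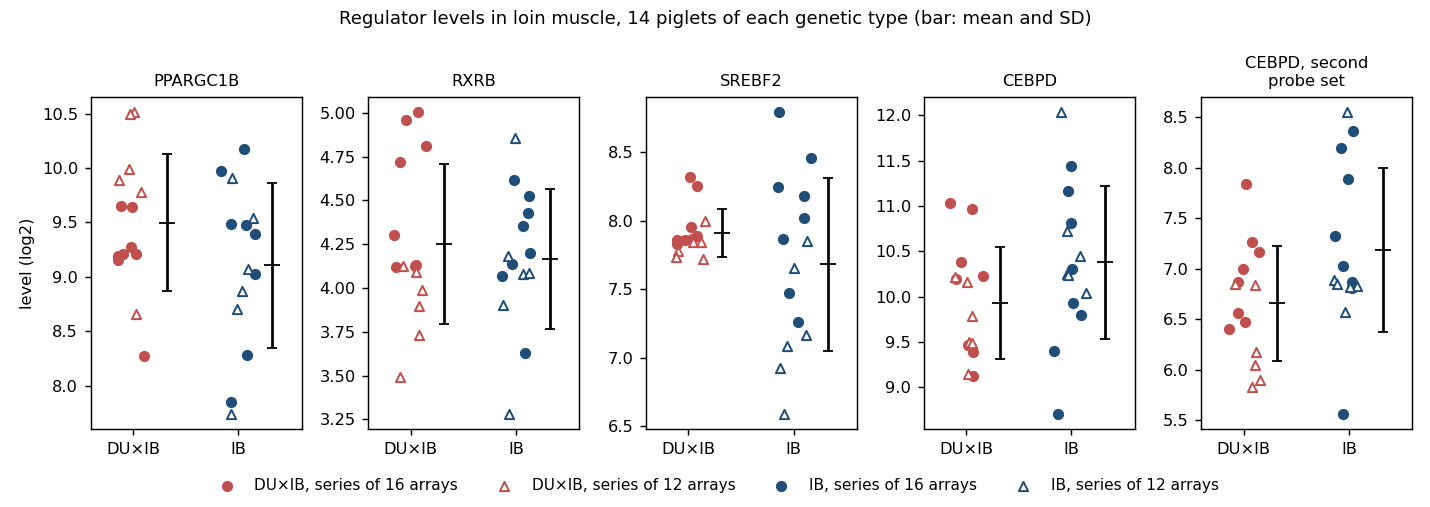
Log2 level of each regulator in every piglet, DU×IB left of IB, with filled circles for the series of 16 arrays, open triangles for the series of 12, and bars for the mean and SD of each type. The types overlap in all 5 panels, and *SREBF2* spans 7.72 to 8.32 in DU×IB within a range of 6.59 to 8.79 in IB.

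*SREBF2* varied less from piglet to piglet in DU×IB than in IB, though by a test that just missed the threshold. Around the mean of its type and series, its SD was 0.16 in DU×IB and 0.49 in IB, a variance ratio (IB over DU×IB) of 9.07. The narrow spread held in both series, with an SD of 0.19 in DU×IB against 0.50 in IB among the 16 arrays and 0.10 against 0.47 among the 12. Without IB piglet 9 the ratio was 8.27.

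A wider spread in IB was common on these arrays, as 76.4% of probe sets had a ratio over 1 and the median ratio was 1.59. Only 71 of 5226 probe sets (1.36%) exceeded the ratio of *SREBF2*. A permutation test of its ratio, with type labels exchanged within series 100000 times, gave p = 0.0027, and adjusted over all probe sets p = 0.101, just outside the threshold, while 112 probe sets passed. This comparison was chosen after the values had been seen, and as the DU×IB piglets came from fewer litters, litter and genetic type cannot be told apart in it. The other ratios were 2.04 for *PPARGC1B* (p = 0.208), 1.46 for *RXRB* (p = 0.496), and 1.94 and 3.17 for the main and second *CEBPD* probe sets (p = 0.197 and 0.116 in the same permutation test).

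**Figure D2:**
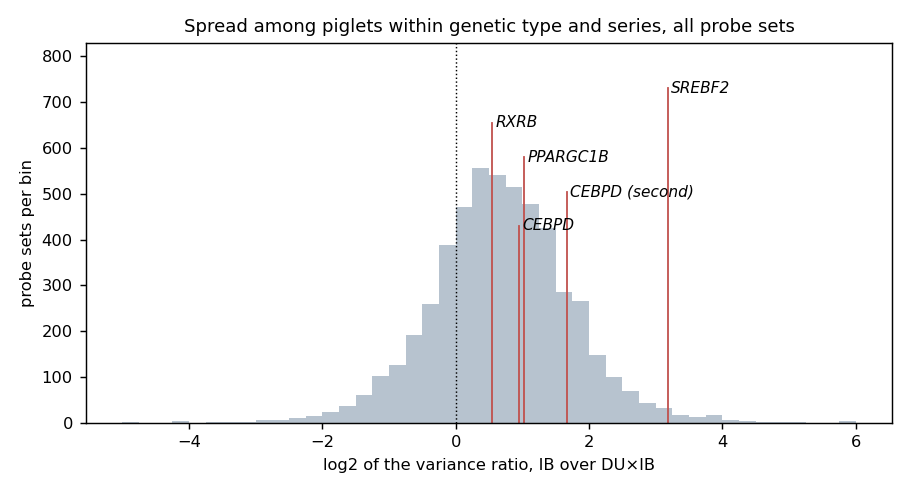
Number of probe sets by the log2 of their variance ratio, IB over DU×IB, within genetic type and series, with red lines at the regulators. Most probe sets lie right of 0 (76.4%), and *SREBF2*, at a ratio of 9.07, lies in the right tail.

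The genes that these factors are known to act with were measured by type as a background. Of 286 listed genes of lipid metabolism, its regulators and the glucocorticoid response, called lipid genes below, 106 were on the filtered array. Limma called 9 of these 106, 4 with the greater level in DU×IB and 5 in IB. Of all 5226 probe sets, limma called 2.07% with DU×IB above IB and 0.708% with IB above DU×IB. All 9 lipid genes called are in the study's own list of differentially expressed genes and so are not independent evidence. None of the 26 partner regulators among them (PPARs, LXRs, ERRs, other RXRs, C/EBPs and their cofactors) passed, with a median difference of −0.079 against 0.016 over all probe sets. Among cholesterol genes the called ones were *SORT1* (difference 0.66, DU×IB minus IB), a sorting receptor for lipoproteins, *SCARB1* (0.59), the receptor for high-density lipoprotein, and *MYLIP* (−0.67), the ubiquitin ligase that degrades the LDL receptor. In fatty acid synthesis they were *ME1* (−1.02), malic enzyme, and *ELOVL6* (−0.63), an elongase. The others were the retinoid genes *RBP7* (1.58) and *RARRES1* (0.74) and the phospholipid and ester enzymes *PON3* (−1.70) and *PLA1A* (−1.30). Some of these had 1 group under the dim limit of 4, with means of 2.87 for *RBP7* and 3.60 for *RARRES1* in IB and 3.15 for *PLA1A* in DU×IB. *PON3* averaged 5.81 ± 0.54 in DU×IB and 7.52 ± 0.66 in IB (SD, n = 14 each). The calls of *ELOVL6*, *MYLIP* and *SCARB1* were lost in 20, 19 and 5 of the 28 fits that left out 1 piglet.

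Whether each regulator varied together with lipid genes was then examined within each genetic type, by regressing every other probe set on the regulator. The study scored regulatory factors, these 4 included, by differential co-expression with its listed genes on these arrays, so relations with genes of that list are not independent evidence. In DU×IB piglets, 7 of 106 lipid genes were called with *CEBPD* (6.60%, against 4.06% of all probe sets) and none with the other 3 factors (0% of all probe sets for each). In IB piglets, 7 were called with *PPARGC1B* (6.60%, against 2.49%), 3 with *CEBPD* (2.83%, against 1.21%), 2 with *SREBF2* (1.89%, against 0.708%) and none with *RXRB* (0%).

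Where limma called none (0 of 5225 probe sets), the counts at an unadjusted p under 0.05 in DU×IB piglets were 156 for *PPARGC1B*, 210 for *RXRB* and 330 for *SREBF2*, and for *RXRB* in IB piglets 246. These sets of calls were sensitive to single piglets and to scale. Counts given below for such changes are of lipid genes alone, without the share of all probe sets. On ranks in place of values limma called no lipid gene in either type. For the family of 848 pairs (4 regulators, 106 lipid genes, both types), a permutation test of Pearson's r with piglets exchanged within series had 16 pairs at an adjusted p under 0.10 and 140 at an unadjusted p under 0.05, and Spearman's rho had 9 at the adjusted threshold.

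**Figure D3:**
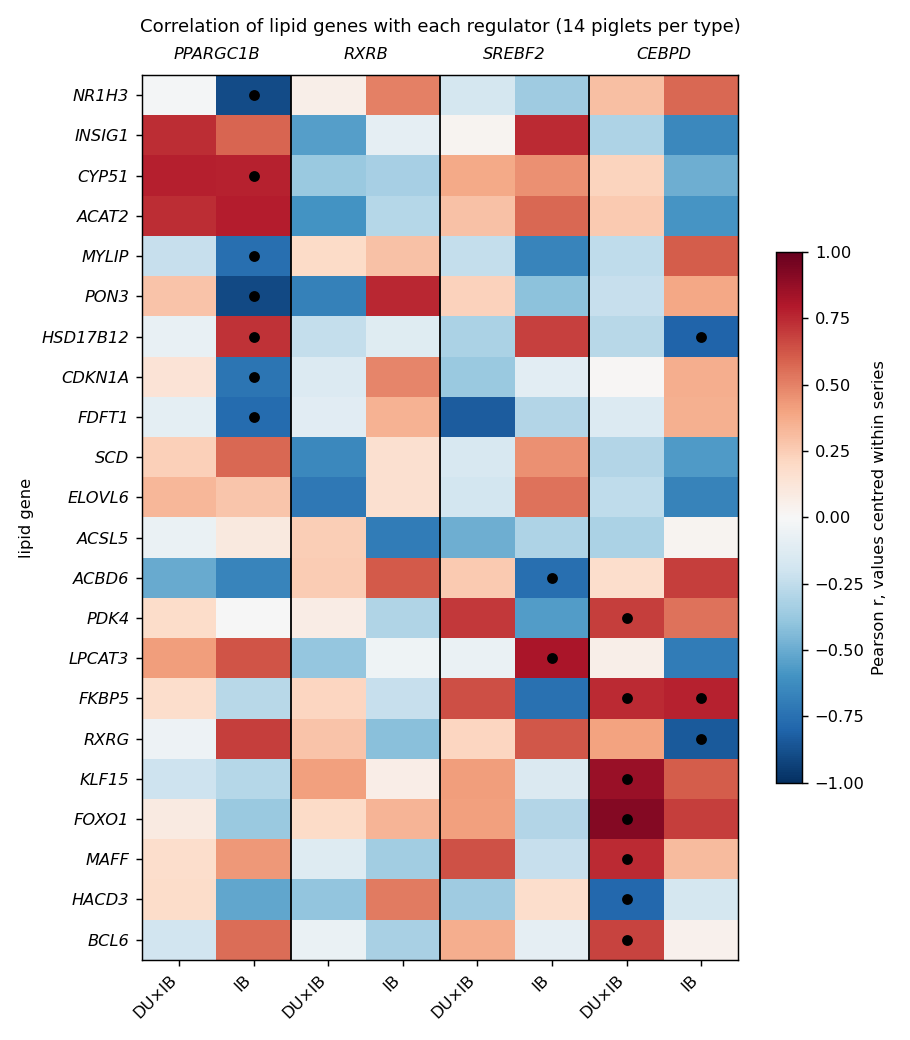
Pearson r of the lipid genes named for any regulator with each of the 4 regulators, values centred within series, 14 piglets per column, DU×IB left of IB. Dots mark the 19 pairs that limma called (adjusted p under 0.10), of which 7 are in DU×IB columns and 12 in IB columns.

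Most cholesterol synthesis genes had positive correlations with *PPARGC1B* in both types. Of the 11 measured genes of cholesterol synthesis and uptake, 9 had a positive r with *PPARGC1B* in DU×IB (median r = 0.62, against 0.096 over all probe sets) and 9 in IB (median r = 0.49, against 0.12). Under array median centring the counts were 9 and 8, with medians of 0.57 in DU×IB and 0.41 in IB, and under quantile normalization they were again 9 and 8. The sign was positive for 10 of 11 genes in each series of DU×IB, and for 9 of 11 in the series of 16 and 6 of 11 in the series of 12 of IB.

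The cholesterol gene with the lowest permutation p in both types was *CYP51*, the lanosterol demethylase of the sterol pathway. Its r was 0.77 in DU×IB (permutation p = 0.0010, adjusted p = 0.066 over the 848 pairs; rho = 0.85, p = 0.00065) and 0.77 in IB (p = 0.00030, adjusted p = 0.045; rho = 0.76, p = 0.0024). Within series r was 0.94 and 0.67 in DU×IB (series of 16 and of 12) and 0.91 and 0.60 in IB, and without the 2 piglets farthest from the median of *PPARGC1B* it was 0.94 in DU×IB and 0.76 in IB. In limma the IB relation passed (adjusted p = 0.089) and the DU×IB relation did not (adjusted p = 0.993).

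*ACAT2*, the thiolase that opens the pathway, and the partner regulator *INSIG1*, which holds the SREBP factors in the endoplasmic reticulum, gave r = 0.74 and 0.74 in DU×IB and r = 0.78 and 0.58 in IB. Permutation p-values adjusted over the 848 pairs were 0.161 and 0.123 in DU×IB and 0.067 and 0.261 in IB. Without the 2 farthest piglets, *ACAT2* had r = 0.65 in DU×IB and 0.61 in IB, and *INSIG1* had r = 0.38 in DU×IB, where its value rests on piglets 3 and 14, and 0.59 in IB. *FDFT1*, squalene synthase, ran the other way in IB (r = −0.77, permutation p = 0.0028; r = −0.096 in DU×IB). The IB calls of *CYP51* and *FDFT1* were lost in 11 and 12 of the 14 fits that left out 1 IB piglet.

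The lipid genes with the largest r in size with *PPARGC1B* in IB piglets, *PON3* and *NR1H3*, were negatively related to it. *PON3*, a paraoxonase that hydrolyses lactones and oxidized lipids, had r = 0.29 in DU×IB and r = −0.90 in IB (permutation p = 0.272 in DU×IB and 0.00011 in IB, adjusted p = 0.031 in IB, rho = −0.89 in IB). In IB it was −0.95 and −0.82 within the series of 16 and of 12, and −0.82 without the 2 piglets farthest from the median. It was the only one of the 19 called relations that limma kept whichever piglet was left out. Its slope was 0.29 in DU×IB and −0.74 in IB, and the difference of 1.03 ± 0.29 (SE) had a limma adjusted p of 0.629 over all probe sets (unadjusted p = 0.0013).

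*NR1H3*, the oxysterol receptor LXR alpha and a dimer partner of the RXRs, had r = −0.020 in DU×IB and r = −0.90 in IB (permutation p = 2e-05 in IB, adjusted p = 0.017; rho = −0.87). It was −0.91 and −0.93 within the 2 series of IB and −0.79 without the 2 farthest piglets. The limma call (adjusted p = 0.041) was lost without IB piglet 9 (0.111) and under array median centring (0.104). *MYLIP* (r = −0.76 in IB) and *CDKN1A*, the cell cycle inhibitor p21 (r = −0.73 in IB), were also called with a negative slope. *HSD17B12*, a reductase of fatty acid elongation, was called with a positive one (r = 0.73 in IB). Without the 2 farthest piglets r was −0.63 for *MYLIP*, −0.37 for *CDKN1A* and 0.48 for *HSD17B12*. Their permutation adjusted p-values in IB were 0.112, 0.1155 and 0.143. These calls were lost in 7, 11 and 8 of the 14 fits that left out 1 IB piglet. Leaving out single IB piglets gave 2 to 12 called lipid genes for *PPARGC1B* in place of 7 (2 without piglet 4, 5, 8 or 10, 4 without piglet 3, 9 or 12, and 12 without piglet 7), 2 were called under array median centring and 0 without a series term. In DU×IB 2 were called without piglet 14.

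On the deposited scale, the fatty acid oxidation genes had mostly opposite signs with *SREBF2* in the 2 types. Among IB piglets all 13 measured genes of fatty acid oxidation had a negative r with it (median −0.45, against −0.13 over all probe sets), and in DU×IB piglets 12 of 13 had a positive one (median 0.29, against 0.029). The negative sign in IB held for 12 of 13 genes under array median centring and under quantile normalization, and for all 13 without IB piglet 9, but for only 7 of 13 in the series of 12. The positive sign in DU×IB did not hold across scalings, as it was seen for 7 of 13 genes under array median centring and for 6 of 13 under quantile normalization. No gene of this group was called in either type by limma.

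The oxidation gene with the lowest p was *HADHB*, the thiolase subunit of the trifunctional protein, named here after its values were seen. Its r with *SREBF2* was 0.26 in DU×IB and −0.79 in IB (permutation p = 0.00046 in IB, adjusted p = 0.045; rho = −0.89, p = 6e-05). In IB it was −0.89 and −0.71 within the series of 16 and of 12, and −0.69 without the 2 farthest piglets. The limma adjusted p of the IB slope was 0.114.

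*PDK4*, the kinase that shuts off pyruvate oxidation, and *FKBP5*, a glucocorticoid-induced cochaperone of the glucocorticoid receptor, had opposite signs by type. *PDK4* had r = 0.71 in DU×IB and r = −0.56 in IB (permutation p = 0.0059 and 0.049). *FKBP5* had r = 0.64 in DU×IB and r = −0.74 in IB (permutation p = 0.032 and 0.0034). Without piglets 1 and 7 of each type, those farthest from the median of *SREBF2*, r was 0.42 in DU×IB and −0.42 in IB for *PDK4*, and 0.43 in DU×IB and −0.58 in IB for *FKBP5*. The slopes of *FKBP5* on *SREBF2* differed by 6.37 ± 1.57 (SE, DU×IB minus IB; limma unadjusted p = 0.00036, adjusted p = 0.458) and those of *PDK4* by 6.57 ± 1.84 (unadjusted p = 0.0013, adjusted p = 0.585). As *SREBF2* spanned only 7.72 to 8.32 in DU×IB, those slopes rest on a short range.

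The 2 lipid genes that limma called with *SREBF2* in IB were *LPCAT3*, which remodels phospholipids with polyunsaturated chains (r = −0.068 in DU×IB and 0.82 in IB), and *ACBD6*, an acyl-CoA-binding protein (r = 0.26 in DU×IB and −0.76 in IB). Their permutation p-values in IB were 0.00046 and 0.00048, adjusted p = 0.045 for both. *LPCAT3* kept r = 0.90 and 0.68 within the 2 series of IB, and *ACBD6* r = −0.84 and −0.76. In DU×IB *ACBD6* averaged 3.48, under the dim limit of 4, so its r there rests on dim values. Between 0 and 12 lipid genes were called with *SREBF2* when one IB piglet was left out (12 without piglet 3, 1 without piglet 12, 0 without piglet 1, 2, 4, 5, 6, 7, 9 or 10), 14 under array median centring and 13 under quantile normalization.

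With the 11 genes of cholesterol synthesis and uptake, not all of them its textbook targets, *SREBF2* had a median r of 0.28 in DU×IB and 0.34 in IB. The r was positive for 8 of 11 genes in both. None was called by limma. By permutation *FDFT1* passed in DU×IB, with a negative sign (r = −0.83, −0.70 without the 2 farthest piglets, permutation p = 0.0010, adjusted p = 0.066; r = −0.30 in IB).

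Of the 7 lipid genes called with *CEBPD* in DU×IB, 2 were partner regulators and 3 were among the 14 measured glucocorticoid and acute-phase genes. Those 14 had no common sign (8 positive in both types, median r = 0.032 in DU×IB and 0.081 in IB). In DU×IB piglets *FOXO1*, the forkhead factor of fasting, had r = 0.92 (permutation p = 8e-05, adjusted p = 0.031; rho = 0.88), with 0.97 and 0.69 within the series of 16 and of 12 and 0.88 without the 2 farthest piglets. *KLF15*, a glucocorticoid-induced factor of amino acid and lipid use, had r = 0.86 (permutation p = 0.00037, adjusted p = 0.045; rho = 0.83), with 0.91 and 0.66 within series. In IB piglets the same genes had r = 0.69 and 0.61 (permutation p = 0.0078 and 0.033), with −0.063 for *KLF15* in the series of 12. Their slopes in IB were not called. Without the 2 farthest IB piglets (3 and 9) r was 0.32 for *FOXO1* and 0.67 for *KLF15*.

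*FKBP5* was called by limma with *CEBPD* in both types, with slopes of 1.34 ± 0.31 in DU×IB and 1.21 ± 0.27 in IB (SE). Its r was 0.74 in DU×IB and 0.77 in IB (permutation p = 0.013 and 0.0026, adjusted p = 0.186 and 0.101), so neither passed by permutation. The DU×IB call was lost in 8 of the 14 fits that left out 1 DU×IB piglet. The slopes differed by 0.13 ± 0.45 (SE, limma adjusted p = 0.905). Within the series of 12 of DU×IB its r was 0.28, against 0.83 in the series of 16. *PDK4* (r = 0.69), *MAFF*, a small Maf factor (0.75), and *BCL6*, a transcriptional repressor (0.67), were also called with a positive slope in DU×IB, and *HACD3*, a dehydratase of fatty acid elongation, with a negative one (−0.78). Of these 7 genes 6 were also called with the second *CEBPD* probe set, for which 10 were called.

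The calls in DU×IB leaned on single animals. No lipid gene was called with *CEBPD* when DU×IB piglet 2, 4, 5 or 6 was left out, 2 or 3 were called without piglet 7, 8, 9 or 14, and 14 and 15 without piglets 3 and 13. The slopes themselves stayed positive throughout, between 0.58 and 0.70 for *FOXO1* and between 0.65 and 0.85 for *KLF15*. Without a series term 2 lipid genes were called, and under array median centring 11.

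In IB piglets *CEBPD* was called with *RXRG*, the muscle-enriched retinoid X receptor, at r = −0.84 (permutation p = 0.00069, adjusted p = 0.056; rho = −0.72), against r = 0.40 in DU×IB. Within the IB series r was −0.82 and −0.93. The slopes of *RXRG* on *CEBPD* were 0.23 in DU×IB and −0.85 in IB, and the difference of 1.08 ± 0.25 (SE) had a limma adjusted p of 0.142. That difference was past the threshold under quantile normalization (adjusted p = 0.088), without IB piglet 3 (0.016) and without DU×IB piglet 13 (0.048). The call of the IB slope itself was lost without IB piglet 9 (adjusted p = 0.153). *HSD17B12* was called with a negative slope (r = −0.28 in DU×IB and −0.80 in IB). Its limma call was lost without IB piglet 6, 7, 9 or 14 (adjusted p between 0.104 and 0.130). That of *FKBP5* was lost without IB piglet 2, 6 or 7 (0.113 to 0.203). With the second *CEBPD* probe set, for which 4 lipid genes were called in IB, *RXRG* and *FKBP5* were also called and *HSD17B12* was not. Without IB piglet 3, 18 lipid genes were called with *CEBPD* in IB in place of 3. Of the 11 cholesterol genes, 6 had a positive r with *CEBPD* in DU×IB and 2 in IB (median r = 0.088 in DU×IB and −0.47 in IB, against −0.15 and −0.0068 over all probe sets), and 5 of 11 were positive in the IB series of 12.

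*RXRB* had no relation called by limma in either type, and 1 pair passed by permutation. Its lowest p in IB was with *PON3* (r = −0.68 in DU×IB and 0.75 in IB, permutation p = 0.033 and 0.0014, adjusted p = 0.253 and 0.080). The slopes were −1.11 in DU×IB and 1.18 in IB, and their difference of −2.29 ± 0.49 (SE) had a limma adjusted p of 0.369 (unadjusted p = 7.1e-05). It passed under array median centring (adjusted p = 0.075), under quantile normalization (0.046) and without piglet 7 of DU×IB (0.097) or of IB (0.089). In DU×IB the lowest limma p-values were with the fatty acid genes *ELOVL6* (r = −0.71, −0.58 without the 2 farthest piglets) and *SCD*, the stearoyl-CoA desaturase (r = −0.65, −0.49 without them), which had r = 0.16 and 0.16 in IB. In IB, *ACBD6* and *ACSL5*, an acyl-CoA synthetase, followed *PON3* by limma p. The r of *ACBD6*, 0.61, was 0.26 without IB piglet 9, on which it rests, and that of *ACSL5*, −0.70, was −0.65 without it and −0.45 without the 2 farthest piglets. Within the series of 12 of DU×IB its r with *PON3* was −0.23. All of these rest on a level near the dim limit.

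No difference of slopes between the types passed the test for any regulator over all probe sets (limma, 0 of 5225 or 0% each; at an unadjusted p under 0.05 there were 245 for *PPARGC1B*, 113 for *RXRB*, 328 for *SREBF2* and 718 for *CEBPD*). A relation called in only one type is thus not shown to differ between types.

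**Figure D4:**
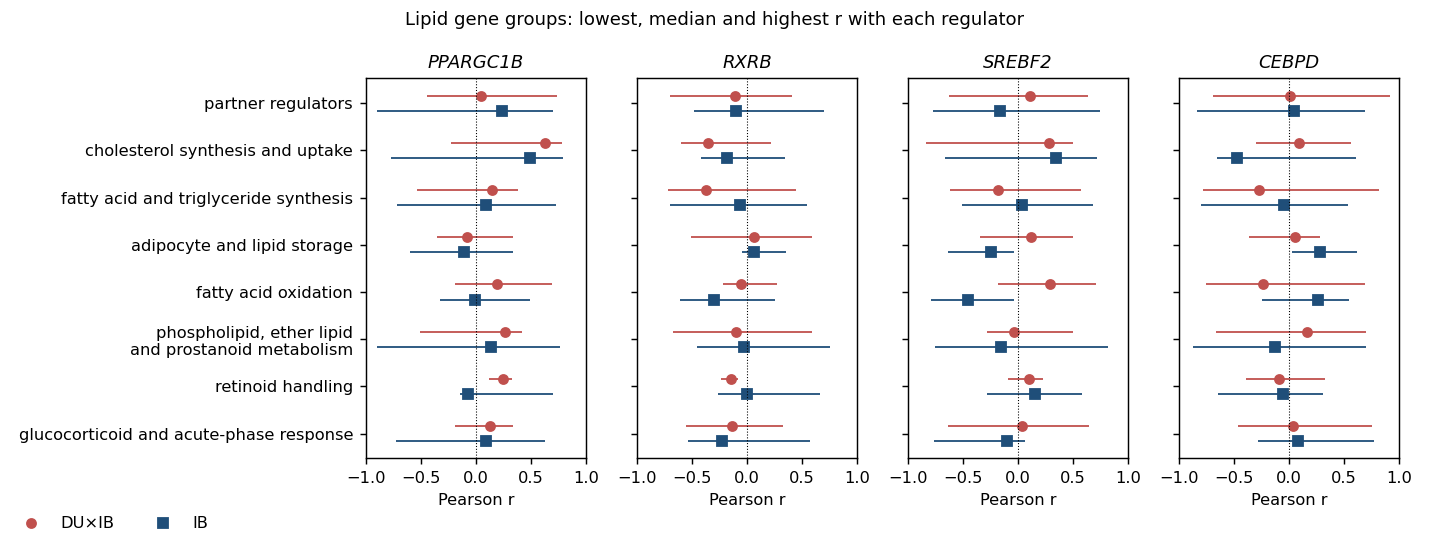
Lowest, median and highest Pearson r of each lipid gene group with each regulator, DU×IB (circles, upper line) and IB (squares, lower line), 14 piglets each. Cholesterol genes sit to the right for *PPARGC1B* in both types (medians 0.62 and 0.49). For *SREBF2* the medians of the fatty acid oxidation genes lie on opposite sides (0.29 in DU×IB and −0.45 in IB). The DU×IB side did not hold across scalings, and limma called no oxidation gene with *SREBF2* in either type.

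The regulators were also set against each other, 6 pairs in each type. One of the 12 correlations passed: in IB piglets *SREBF2* and *CEBPD* ran opposite (r = −0.72, permutation p = 0.0062, adjusted p = 0.075 over the 12; rho = −0.72, p = 0.0071). In DU×IB their r was 0.33 (permutation p = 0.329), with 0.50 and −0.44 within the 2 series. The IB value was −0.74 and −0.67 within the series of 16 and of 12, −0.69 without the 2 piglets farthest from the median of *SREBF2*, and −0.65 without IB piglet 9. It was −0.45 with an adjusted p of 0.326 under array median centring. The slopes of *CEBPD* on *SREBF2* differed between types by 2.49 ± 1.09 (SE, limma unadjusted p = 0.031, adjusted p = 0.746).

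*PPARGC1B* and *CEBPD* had r = −0.030 in DU×IB and −0.59 in IB (permutation p = 0.913 and 0.036), and the IB value was −0.17 without the 2 farthest piglets (IB 3 and 9), on which it rests; rho was −0.35 in IB. *PPARGC1B* and *RXRB* had negative values in both types, r = −0.42 in DU×IB and −0.56 in IB (permutation p = 0.111 and 0.040), and −0.17 and −0.21 without the 2 farthest. *PPARGC1B* and *SREBF2* had r = 0.23 in DU×IB and 0.52 in IB (permutation p = 0.384 and 0.071). The pairs of *RXRB* with *SREBF2* and with *CEBPD* had r between −0.12 and 0.25.

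**Figure D5:**
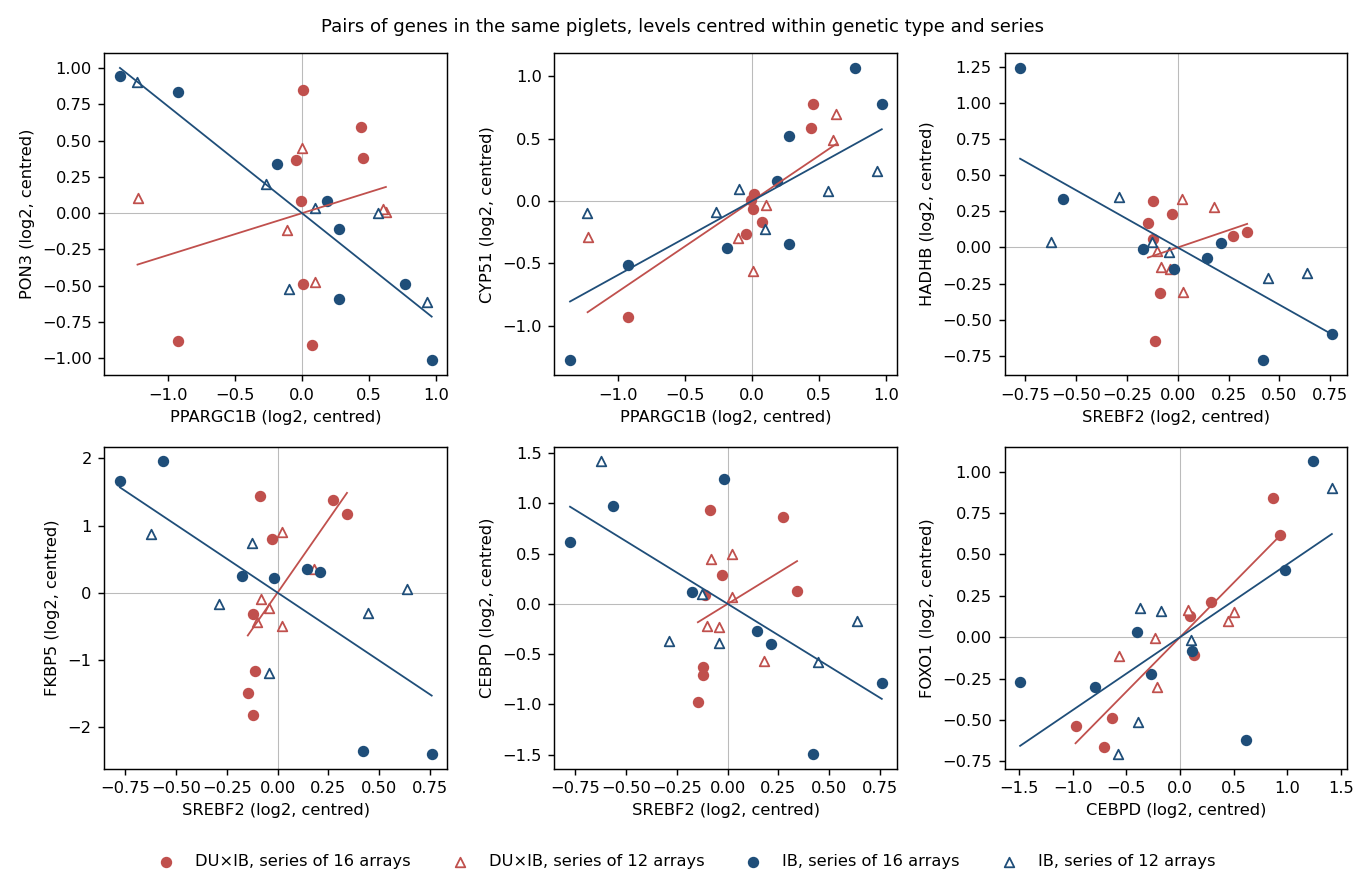
Levels of 6 pairs of genes in the same piglets, centred within genetic type and series (log2), DU×IB in red and IB in blue, with filled circles for the series of 16, open triangles for the series of 12 and a least-squares line per type. *CYP51* rises with *PPARGC1B* in both types (r = 0.77 and 0.77), *PON3* falls with it among the blue points (r = 0.29 in DU×IB and −0.90 in IB), and the red points span a short range of *SREBF2*.

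Over all 28 arrays, centred within type and series, the named genes with the most similar pattern were taken for each regulator by Pearson r. A gene with several probe sets counted by the one of highest r. For *CEBPD* they were *GLUL*, glutamine synthetase (r = 0.89, with 0.80 in DU×IB and 0.93 in IB), *GATA3*, a zinc finger factor (0.82), and *FOXO1* (0.77). The *GATA3* value is not from the probe set that the study scored as a regulatory factor. For *PPARGC1B* they were *KRT10*, a keratin (0.81), *MSRB1*, a methionine sulfoxide reductase (0.81), and *CYP51* (0.77), the only one of the 3 in a lipid list.

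For *SREBF2* they were *ARG2*, mitochondrial arginase (0.78), *TAF10*, a subunit of the general factor TFIID (0.77), and *THY1*, a surface glycoprotein of fibroblasts and other cells (0.73). *THY1* had r = −0.27 in DU×IB and 0.92 in IB. For *RXRB* the values were lower, with *LOC100739163* (0.64), *RPP21*, a ribonuclease P subunit (0.59), and *GSE1* (0.56).

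None of the relations between the regulators and markers of cell types passed by adjusted p, which does not show that they were weak. Of 48 relations between the 4 regulators and the mean of 6 marker lists in both types, 4 had a permutation p under 0.05 and the lowest adjusted p was 0.224. The 4 were *CEBPD* with 3 slow fibre genes in DU×IB (r = 0.71), *RXRB* with the same list in IB (r = −0.73), *PPARGC1B* with 4 fibroblast and preadipocyte genes in IB (r = 0.68) and *CEBPD* with 3 adipocyte genes in IB (r = 0.59). Without the 2 farthest piglets these values were 0.64, −0.73, 0.54 and 0.46. The mean of the 4 fibroblast genes ran between 8.40 and 9.86 over the DU×IB piglets and between 6.72 and 9.19 over the IB piglets, that of the 3 adipocyte genes between 10.59 and 12.07 and that of the 3 slow fibre genes between 8.39 and 10.33 over the IB piglets. Their part in the relations with lipid genes was not tested.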

How the data were processed

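The authors deposited log2 values that GCRMA (no version given), in BRB-ArrayTools, made from images read with GCOS (no version given); background was corrected, arrays normalized and probes summarized per probe set. The table is limited to 5226 probe sets that varied enough to pass the study's filter. Depth does not apply to arrays, and their number limits the precision. Gene names were those of the study for 572 probe sets, those of the platform annotation for a further 2073, and missing for 2581.

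The hybridization series, which the labels do not give, was read from 10 spike-in probe sets, whose mean was 8.93 to 9.68 on 16 arrays and 6.19 to 7.01 on 12. Tests were two-sided limma fits (limma 3.58.1, R 4.3.3) with a series term, Benjamini-Hochberg over all probe sets, threshold 0.10, the study's rate. Slopes came from regressions within each type, and their difference from an interaction. Correlations were permuted within series (100000 times, numpy 2.4.6). Scripts were tested on simulated data. Named are the regulators, lipid genes past the threshold by type, the 3 of lowest p per regulator and type, called pairs and the 3 nearest genes; genes named besides these were chosen after their values were seen. Members and lists were chosen with earlier results of these data known.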

Additional observations from a re-analysis of the deposited data

How the results depend on the processing

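No regulator passed the test by genetic type under any alternative run, leaving out single piglets included. The sign turned in single series only: −0.0050 for *PPARGC1B* and −0.057 for *SREBF2* in the series of 16, and −0.18 for *RXRB* in the series of 12. Without one piglet the differences lay between −0.58 and −0.31 for *CEBPD* (−0.67 and −0.39 for its second probe set), 0.27 and 0.48 for *PPARGC1B*, 0.027 and 0.16 for *RXRB*, and 0.16 and 0.30 for *SREBF2*. With the replicate number as a block in place of the series, the regulators kept adjusted p-values of 0.31 or more (0.421 for *CEBPD*) and 7 lipid genes were called in place of 9. Numbers do not in general pair the piglets, as 2 of 14 pairs correlated above 0.1 within series. The largest value was that of number 3, whose IB and DU×IB arrays had r = 0.54 within series over all probe sets. Its cause was not tested.

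By type, 1 lipid gene was called in the series of 16 and 15 when all probe sets of a gene were averaged, where fewer features were tested, and 6 to 12 without one piglet. The share of all calls that were higher in DU×IB was 74.5%, and 66.4% and 67.1% under array median centring and quantile normalization.

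Lipid pairs called in DU×IB (7) became 47 without a series term (45 of them with *RXRB*), 11 under array median centring, 0 at a threshold of 0.05, 0 on ranks, and 0 to 15 without one piglet. Those in IB (12) became 55, 19, 3, 0 and 5 to 34 under the same changes and 22 under quantile normalization. Called differences of slopes (0) became 2 under array median centring, 3 under quantile normalization and 0 to 22 (22 without IB piglet 3). The causes were not tested. The share of all probe sets called was not taken under these changes, so the counts show nothing particular to lipid genes.

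Among the regulators, 1 of 12 correlations was called, 3 without centring within series, and 0 under array median centring or without the 2 farthest piglets. Weak correlations changed sign. Without centring within series, r was −0.086 for *PPARGC1B* and *SREBF2* in DU×IB and 0.070 for *RXRB* and *SREBF2* in IB. Under array median centring, *PPARGC1B* and *CEBPD* in DU×IB had 0.053 and *RXRB* and *SREBF2* in IB 0.21. Without the 2 farthest piglets, *PPARGC1B* and *CEBPD* (0.40) and *RXRB* and *SREBF2* (−0.15) turned in DU×IB, and *RXRB* turned with *SREBF2* (0.092) and with *CEBPD* (−0.0051) in IB. In an alternative chosen after seeing the data, without IB piglet 9, *RXRB* turned with *SREBF2* (0.19) and with *CEBPD* (−0.11) in IB, and its variance ratio was 0.98.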
